A study of Homo sapiens with 6 samples.

Results

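The genes described here are 41 nuclear genes for subunits of respiratory complexes II, III and IV, of cytochrome c and of ATP synthase (complex V), out of 62703 gene IDs counted in each library. They were taken by gene symbol from a list of these subunits, with no threshold on a measured value: 4 genes for complex II, 10 for complex III and cytochrome c, 12 for complex IV and 15 for ATP synthase. All 41 had a gene ID of their own and all passed the filter on low counts. Total RNA came from SEM, a cell line of human B-cell acute lymphoblastic leukaemia (B-ALL). In the knock-down group (KD, 3 libraries) the cells received 2 DsiRNAs, duplexes that Dicer cuts into short interfering RNAs, aimed at the junction where the fusion circular RNA AK_8_2 is back-spliced. In the negative control group (NC, 3 libraries) they received a purchased duplex without a target. Both groups went through the same lipid transfection, a reverse transfection followed a day later by a forward one. Counts per gene do not measure the circular RNA, so the degree of silencing is not given by these values.

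The respiratory chain sits in the inner mitochondrial membrane and passes electrons from metabolites to oxygen. Complex II (succinate dehydrogenase) oxidises succinate in the citric acid cycle and reduces ubiquinone, complex III moves the electrons from ubiquinol to the small carrier cytochrome c, and complex IV (cytochrome c oxidase) hands them to oxygen. Complexes III and IV pump protons, and ATP synthase uses the return of these protons through its membrane ring to make ATP. Complex II is coded in the nucleus alone, while complexes III, IV and V each also hold subunits made inside the mitochondrion from mitochondrial DNA. Many of the nuclear genes have GC-rich promoters with sites for the factors NRF1, GABP (an ETS family factor), YY1 and SP1.

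The libraries held 14750579 to 26694160 counts in genes, of which the 41 subunit genes took 86882 to 178538, or 0.589% to 0.669%. Replicate 1 differed from the rest in both groups, with 48.6% (NC) and 50.03% (KD) of records outside annotated genes against 11.3% to 17.3% elsewhere, and 31.5% of the records of KD replicate 3 aligned to more than 1 place, against at most 17.3% in the others. Of 10 B-cell precursor markers, 6 were at 10 CPM (counts scaled by normalised library size) or more in all 6 libraries, and DNTT and BLNK were below 1 CPM in replicates 2 and 3. T-cell, myeloid and erythroid markers summed to 76.7 to 92.8 CPM, 21.4 to 29.1 CPM and at most 2.59 CPM, with most of the T-cell sum from TRAC, and none was at 0 in all 6 libraries. The library kit depletes globin transcripts, so the erythroid sum is no full check. In bulk RNA, fewer cells of a type and less RNA per cell cannot be told apart.

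Promoters, from 250 bases before to 50 bases after the annotated start, were found for 32 of the 41 genes in RefSeq (GRCh38.p14). The NRF1 motif, which is GCGC, any base, T and GCGC again, searched like the others on both strands, was in 9 of these 32 promoters (28.1%), against 6.28% of the promoters of all 27305 genes in the table and 11.9% of those of tested protein-coding genes. The 9 were SDHA and SDHD of complex II, UQCRC1, UQCRFS1, UQCR10 and UQCR11 of complex III, and ATP5F1C, ATP5ME and ATP5PO of ATP synthase, and no complex IV promoter held it. Sequences with this motif that lie upstream of the annotated gene are shown 5′ to 3′ on the gene's strand, with the motif in capitals. They show the element that members of different complexes have in common. SDHA and ATP5ME each had a further such sequence, not shown. The SDHA capitals match the motif on the opposite strand, so they read as its reverse complement.
SDHD, chr11:112086743-112086772, plus strand: accttccgacagctgtgtttGCGCATGCGC
SDHA, chr5:218134-218183, plus strand: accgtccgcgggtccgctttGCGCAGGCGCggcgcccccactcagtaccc
ATP5ME, chr4:674421-674470, minus strand: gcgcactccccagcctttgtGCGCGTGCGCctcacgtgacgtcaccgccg
The ETS motif CCGGAAG was in 14 of the 32 promoters (43.8%, against 10.7% of all and 19.8% of tested protein-coding genes), 5 of them of complex IV. The YY1 motif AAGATGGC was in 5 (15.6%, 3.03% and 5.56%) and the SP1 motif GGGCGG in 18 (56.2%, 44.6% and 69.9%). The 9 genes with the NRF1 motif had a median log2 fold change of 0.08 between KD and NC, and so did the 23 without it. For the ETS motif the medians were 0.09 with and 0.07 without, for YY1 0.04 and 0.08, and for SP1 0.07 and 0.08, none of them tested. A match gives letters in a window and no more.

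None of the 41 genes passed the test, and most had slightly higher estimates in KD. With group as the only term, the quasi-likelihood test of edgeR (Benjamini-Hochberg adjusted) called 0 of 41 (0% of all 16929 genes tested), with 0 at an unadjusted p under 0.05, and DESeq2 also called 0 of the 41. With the replicate number as a block it again called 0 of 41 (0.171% of all genes), with 12 at an unadjusted p under 0.05 and higher in KD (2.9% of all genes) and 0 lower (2.07%). In both fits 35 of 41 estimates were above 0, against 48.6% of all genes with group only and 48% with the block. The median log2 fold change was 0.08 in both fits, where all genes tested had -0.0036 and -0.0051. The estimates with the block ran from -0.04 to 0.22. Their 95% intervals lay between -0.16 and 0.32, so that all 41 were inside a 1.5-fold change in either direction, as were 11271 of the 16929 genes. With group only the intervals were wider, from -0.997 to 0.96, and 31 of 41 were inside a 1.5-fold change, as were 8589 of the 16929 genes. Of 12222 tested protein-coding genes, 10273 were inside it with the block and 8309 with group only.

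The summed level of the 41 genes in the KD libraries, given here and below in the order of replicates 1, 2 and 3, was 5640.3, 7013 and 7343 CPM. In the NC libraries it was 5401, 6703 and 6706 CPM. Each KD library was above the NC library of its number, but KD replicate 1 was below NC replicates 2 and 3, so the groups overlapped. Within replicates 1, 2 and 3 the median difference was 0.04, 0.09 and 0.11 on the log2 scale, with 29, 30 and 37 of 41 genes higher in KD. As unscaled shares of gene counts the 41 genes took 0.606%, 0.669% and 0.660% in KD and 0.589%, 0.637% and 0.654% in NC. The scaling (TMM) factors of replicate 3 were 0.901 in KD and 0.977 in NC, so the size of its difference depends on this scaling. With no TMM factors and group only, 29 of 41 estimates were above 0, against 33.7% of all genes. In all 3 pairs 20 genes were higher in KD (13.1% of all genes tested) and 0 were lower (12.6%). The 6 libraries did not overlap for 3 genes, all higher in KD (1.67% of all genes for that direction), and 0 were lower without overlap (1.77%). 

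Without the block, these numbers depended on which library was present. Leaving out KD replicate 2, KD replicate 3 or NC replicate 1 moved the median of the 41 to -0.0065, -0.0044 and -0.01, with 19, 19 and 18 of 41 estimates above 0, while the median of all genes tested was 0.11, 0.10 and -0.0023. Leaving out KD replicate 1, NC replicate 2 or NC replicate 3 moved it to 0.19, 0.13 and 0.17, with 41 of 41 above 0 each time and all-gene medians of -0.02, -0.11 and -0.09. These fits compare unequal numbers of replicate 1 libraries, which had the lower subunit levels, and the fits without KD replicate 2 or 3 or NC replicate 2 or 3 also tested 31398 to 31605 genes. With the block and a whole pair left out, the median was 0.09, 0.06 and 0.06 without replicates 1, 2 and 3, with 36, 34 and 33 of 41 above 0. Without both replicate 1 libraries and with no block, a fit chosen after seeing the data, it was 0.09 with 35 of 41 above 0.

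**Figure D1:**
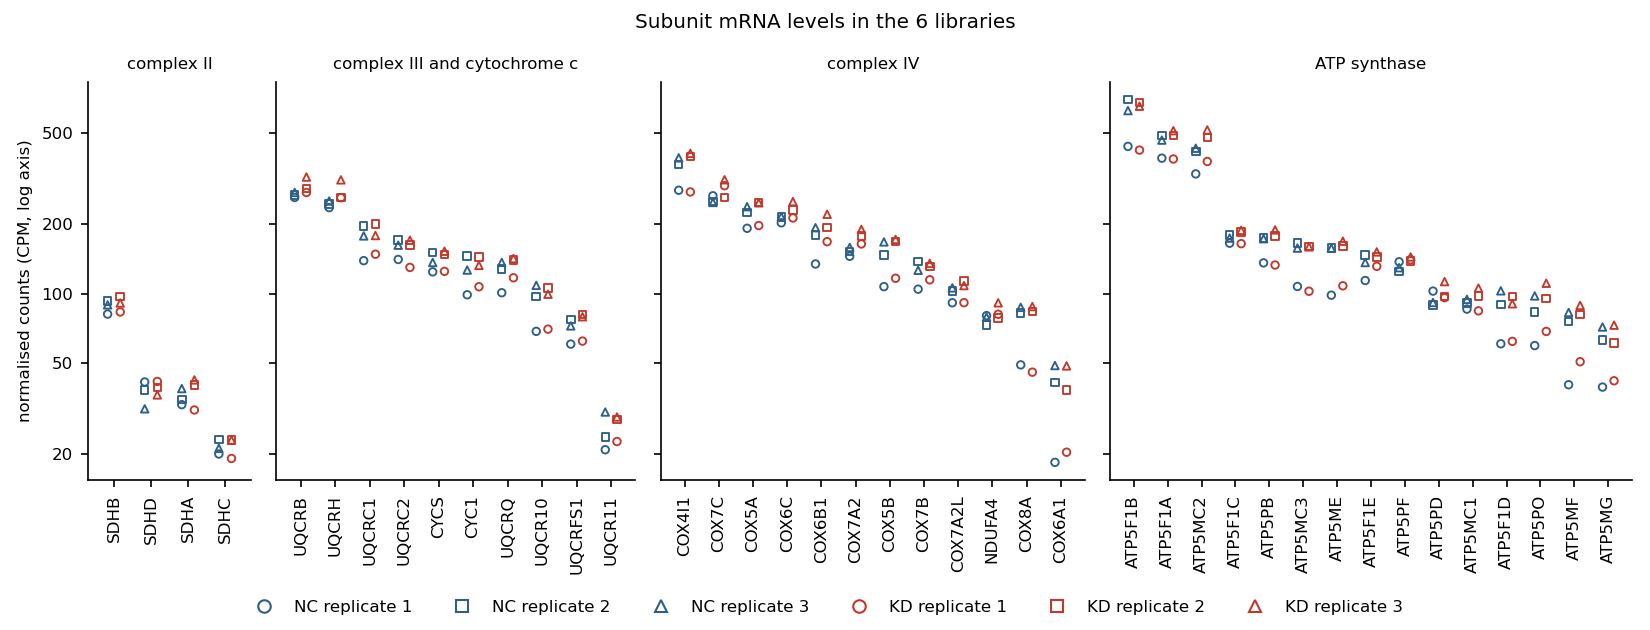
Normalised counts (CPM, log axis) of the 41 subunit genes in each library, grouped by complex and sorted by the NC mean. Blue symbols are NC and red symbols KD, with circles, squares and triangles for replicates 1, 2 and 3. The circles of replicate 1 lie lowest for most genes in both colours.

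The KD and NC libraries overlapped for each complex II gene. The 4 genes had a median log2 fold change of 0.06 in both fits, none called, with medians of -0.03, 0.05 and 0.12 within replicates 1, 2 and 3. SDHB (ENSG00000117118.10, chromosome 1, 17018722 to 17054170, minus strand), the iron-sulfur subunit, had 83.2, 97.2 and 91.01 CPM in KD and 81.4, 92.996 and 89.3 CPM in NC. Each KD library was slightly above the NC library of its number (0.04 with the block, SE 0.05, edgeR quasi-likelihood adjusted p 0.999). SDHA, the flavoprotein that binds succinate, had 31.2, 40.1 and 42.1 CPM in KD and 32.9, 34.6 and 38.6 CPM in NC, lower in KD in replicate 1 and higher in the others (0.10, SE 0.07, edgeR quasi-likelihood adjusted p 0.999). The counts of SDHA are uncertain, because loci named as its copies held on average 63.9% as many counts.

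SDHC and SDHD are the membrane anchors of complex II, where ubiquinone is bound. SDHC had 19.2, 23.1 and 23.1 CPM in KD and 20.1, 23.2 and 21.2 CPM in NC, and SDHD had 41.5, 39.004 and 36.3 CPM in KD and 41.3, 38.1 and 31.6 CPM in NC. For SDHC only replicate 3 was higher in KD, while SDHD was higher in KD in each pair, by 0.01, 0.03 and 0.20 on the log2 scale. SDHD was also 1 of 2 subunit genes, with COX7C, whose level was higher in replicate 1 than the mean of replicates 2 and 3 in both groups.

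Of the 10 genes of complex III and cytochrome c, 9 had an estimate above 0, none was called, and the median was 0.07 in both fits, with 0.08, 0.08 and 0.07 within replicates 1, 2 and 3. UQCRH (ENSG00000173660.12, chromosome 1, 46303631 to 46316776, plus strand), the hinge protein beside cytochrome c1, had 260.999, 261.01 and 312 CPM in KD and 236, 245 and 253 CPM in NC. The KD libraries of UQCRH all lay above the NC libraries, and the estimate with the block was 0.18 (SE 0.05, edgeR quasi-likelihood adjusted p 0.381). Its near-identical copy UQCRHL had 5.41 to 8.66 CPM. UQCRB, the ubiquinone-binding protein, had 275, 286 and 321 CPM in KD and 262, 268 and 275 CPM in NC. Only KD replicate 1, which lay just under NC replicate 3, kept its groups from separating (0.13, SE 0.05, edgeR quasi-likelihood adjusted p 0.766).

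UQCRC2, a core protein of complex III, was the member of this group with an estimate below 0. It had 129.9, 162 and 171 CPM in KD and 141, 171 and 162 CPM in NC, lower in KD in replicates 1 and 2 and higher in replicate 3 (-0.04, SE 0.05, edgeR quasi-likelihood adjusted p 0.999). UQCR11, a small subunit, had 22.7, 28.3 and 29.1 CPM in KD and 20.95, 23.8 and 30.6 CPM in NC, so that its groups overlapped. The estimates of the other 6 with the block, which were UQCRC1, UQCRFS1 (the Rieske iron-sulfur protein), UQCRQ, UQCR10, CYC1 (cytochrome c1) and CYCS (cytochrome c), lay between 0.01 and 0.13. Of these, UQCRQ, at 0.13, had an unadjusted p under 0.05.

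Complex IV had the highest median of the 4 groups, 0.10 with group only, with estimates from -0.02 for COX8A to 0.22 for COX7A2 with the block. Within replicates 1, 2 and 3 the complex IV medians were 0.10, 0.10 and 0.08. In replicate 3 the medians of complex II and ATP synthase were higher, at 0.12 and 0.13, so the ranking did not hold in each pair. With the block 10 of 12 estimates were above 0, none was called and 5 had an unadjusted p under 0.05, and 8 genes were higher in KD in all 3 pairs. COX7A2 (ENSG00000112695.13, chromosome 6, 75237675 to 75250323, minus strand), the widely expressed form of subunit 7A, had 164, 178 and 190.04 CPM in KD and 145, 152 and 159 CPM in NC. All 3 KD libraries lay above all 3 NC libraries, by 0.18, 0.22 and 0.26 within the pairs (0.22 with the block, SE 0.05, edgeR quasi-likelihood adjusted p 0.103). COX7A2L, a related protein that joins complexes III and IV into supercomplexes, had 91.3, 114 and 108 CPM in KD and 91.2, 103 and 106 CPM in NC. Its pairs differed by 0.0009, 0.15 and 0.03, and its groups overlapped (0.06, SE 0.05, edgeR quasi-likelihood adjusted p 0.999).

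COX6B1 (chromosome 19, 35648223 to 35658861, plus strand), the subunit that faces the intermembrane space and links the monomers of a dimer, had 168, 194 and 221 CPM in KD and 134, 179 and 193 CPM in NC. It was higher in KD in each pair, by 0.32, 0.11 and 0.19, while the spread between replicates made the groups overlap (0.21, SE 0.05, edgeR quasi-likelihood adjusted p 0.217 with the block and 1.00 without). COX8A, a small membrane subunit, stood on the other side, with 45.5, 83.4 and 87.8 CPM in KD and 48.99, 82.3 and 87.1 CPM in NC. For COX8A replicate 1 was lower in KD and the other pairs differed by 0.02 and 0.01 (-0.02, SE 0.06, edgeR quasi-likelihood adjusted p 0.999). Among the other 8, which included COX4I1 and COX5A (regulatory subunits), COX5B (a zinc-binding subunit) and NDUFA4 (once assigned to complex I), the estimates with the block ran from -0.0054 for COX6A1 to 0.18 for COX7C.

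**Figure D2:**
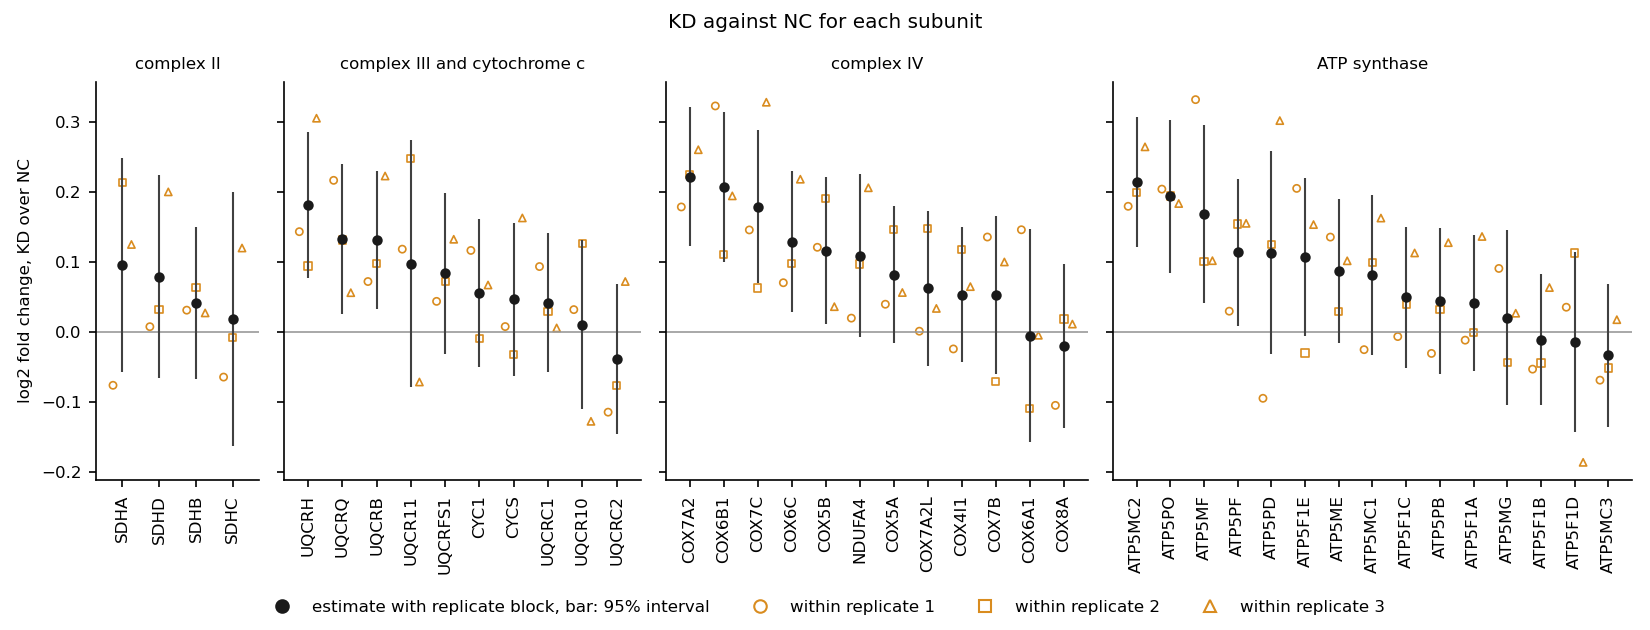
Log2 fold change of KD over NC for each subunit gene, by complex. Black points are estimates with the replicate number as a block, bars their 95% intervals, and orange symbols the differences within replicates 1 (circles), 2 (squares) and 3 (triangles). Most estimates lie above 0, between -0.04 and 0.22, and none passed the test over all genes.

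The 15 ATP synthase genes had a median of 0.08 in both fits, with 12 estimates above 0 and none called. Their medians within replicates 1, 2 and 3 were 0.03, 0.04 and 0.13, and in replicate 3 14 of 15 were higher in KD. ATP5F1B (chromosome 12, 56638175 to 56646068, minus strand), the catalytic beta subunit, had 420.4, 676 and 652 CPM in KD and 436, 697 and 624 CPM in NC. Its replicate 1 libraries were low in both groups and the groups overlapped (-0.01, SE 0.04, edgeR quasi-likelihood adjusted p 0.999). ATP5PO, the stalk subunit named for oligomycin sensitivity, had 68.5, 95.1 and 111 CPM in KD and 59.4, 83.2 and 97.7 CPM in NC. The pairs of ATP5PO differed by 0.20, 0.19 and 0.18, while replicates of 1 group differed by more than that (0.19, SE 0.05, edgeR quasi-likelihood adjusted p 0.351 with the block and 1.00 without).

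ATP5MG, subunit g of the membrane part, had 41.8, 61.1 and 72.9 CPM in KD and 39.2, 62.98 and 71.6 CPM in NC, so that KD was higher in replicates 1 and 3 only (0.02 with the block, SE 0.06). ATP5PF, the coupling factor 6 subunit, was the third gene without overlap between groups, beside UQCRH and COX7A2, and is named after its values were seen. It had 140.3, 139 and 144 CPM in KD and 137, 125 and 129.6 CPM in NC, a narrow gap between KD replicate 2 and NC replicate 1 (0.11 with the block, SE 0.05, edgeR quasi-likelihood adjusted p 0.980). The exons of ATP5PF overlap those of GABPA and JAM2 on the opposite strand; the strand setting of the counting is unknown here.

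The c subunit, copies of which form the rotating membrane ring, is coded by ATP5MC1, ATP5MC2 and ATP5MC3, which give the same mature protein with different import leaders. ATP5MC2 (ENSG00000135390.21, chromosome 12, 53632726 to 53677408, minus strand) had 375, 476 and 514 CPM in KD and 331, 414 and 428 CPM in NC. It was higher in KD in each pair, by 0.18, 0.20 and 0.26, and had the smallest adjusted p of the 41 (0.21, SE 0.04, edgeR quasi-likelihood adjusted p 0.0759 with the block and 1.00 without). ATP5MC1 (chromosome 17, 48892765 to 48895871, plus strand) had 84.1, 97.6 and 106 CPM in KD and 85.6, 91.1 and 94.3 CPM in NC (0.08, SE 0.05). For ATP5MC3 (chromosome 2, 175176258 to 175184607, minus strand) the values were 102, 159.9 and 159.6 CPM in KD and 107, 166 and 158 CPM in NC (-0.03, SE 0.05). Thus ATP5MC2 was higher in KD in every pair, ATP5MC1 in replicates 2 and 3, and ATP5MC3 in replicate 3 alone, by 0.02.

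A ratio of counts within a library does not depend on how libraries are scaled. ATP5MC2 over ATP5MC3 was 3.67, 2.98 and 3.22 in KD and 3.09, 2.50 and 2.72 in NC, a log2 change of 0.25, 0.25 and 0.25 within the pairs. The groups nevertheless overlapped, since NC replicate 1 was above KD replicate 2, and a two-sided exact permutation test over the 6 libraries gave p = 0.2 (0.45 adjusted over 3 ratios), where 3 against 3 libraries cannot go below 0.1. This test does not use the pairing of replicate numbers, so it sets the change against the spread between replicates, and the changes within pairs were not tested. ATP5MC2 over ATP5MC1 changed by 0.20, 0.10 and 0.10 within the pairs (exact permutation p = 0.3, 0.45 adjusted) and ATP5MC1 over ATP5MC3 by 0.04, 0.15 and 0.15 (exact permutation p = 0.5, 0.5 adjusted). ATP5MC2 made up 66.8%, 64.9% and 65.98% of the counts of the 3 genes in KD and 63.2%, 61.7% and 62.95% in NC, and every KD library was above every NC library in this share. The shares of ATP5MC1 and ATP5MC3 overlapped between the groups, and no share was tested.

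**Figure D3:**
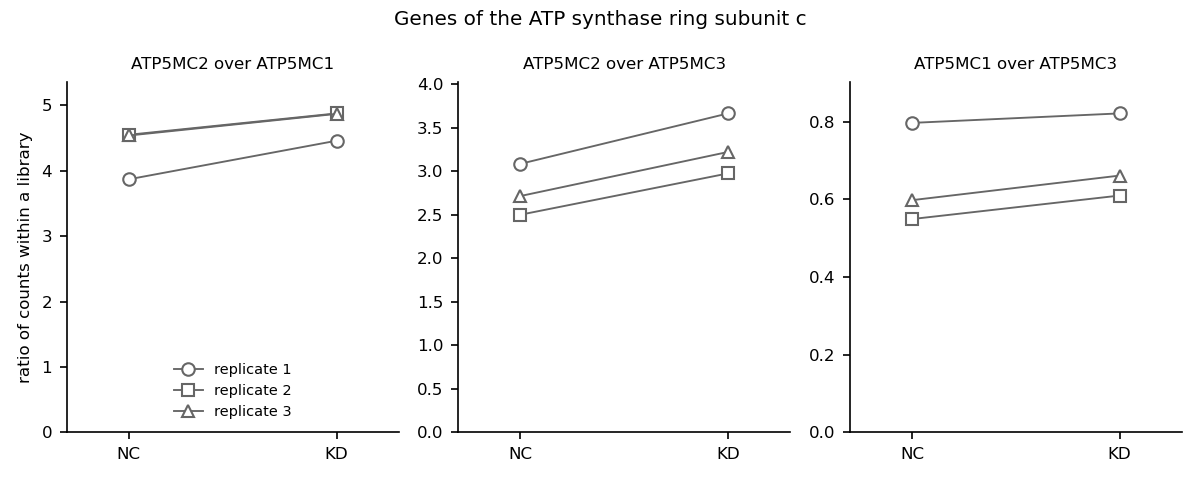
Ratios of counts within a library for the 3 genes of the ATP synthase c subunit, with NC and KD of the same replicate number joined by a line (circle, square and triangle for replicates 1, 2 and 3). The axes start at 0. ATP5MC2 over ATP5MC3 was higher in KD than in NC for each number, with log2 changes of 0.25.

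Levels of different genes were compared only per kilobase, as CPM divided by the length of all annotated exons of the gene in GENCODE 29 (GRCh38). In NC, SDHB was the highest complex II gene at 35.7 ± 2.40 CPM per kilobase (SD, n = 3) and SDHC the lowest at 1.52 ± 0.11, in the order SDHB, SDHD, SDHA, SDHC with no overlap between neighbours over the 3 libraries. UQCRH led complex III at 174 ± 5.78 CPM per kilobase and UQCR11 was lowest at 11.7 ± 2.29, and 4 of 9 neighbours in the order did not overlap. COX6B1 led complex IV at 181 ± 32.9 CPM per kilobase and COX7A2L was lowest at 17.8 ± 1.37, with 3 of 11 neighbours apart. ATP5F1B led ATP synthase at 252 ± 57.9 CPM per kilobase and ATP5MG was lowest at 17.1 ± 4.95, with 5 of 14 neighbours apart. The ranges of the other neighbours overlapped over the 3 libraries. Some of these still kept their order in every NC library, among them COX6B1 over COX5A, UQCR10 over UQCRQ and ATP5MC3 over ATP5MG. In NC these 6 genes were all lowest in replicate 1.

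These orders depend on the length used. With the median length of the transcripts linked to RefSeq, 12 of 41 genes kept their place within their complex. SDHB, at 76.3 CPM per kilobase, and UQCRH, at 405, stayed highest, while COX4I1 (484) led complex IV and ATP5ME (415) led ATP synthase. SDHA (15.6), UQCR11 (18.97), NDUFA4 (36.4) and ATP5F1E (36.2) were then lowest. As a ratio of the levels by both lengths SDHC moved most, from 1.52 to 41.7 CPM per kilobase, since all its exons together span 14160 bases against 515.5 bases for the median RefSeq-linked transcript.

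The difference between replicate 1 and the other replicates was larger for these genes than that between KD and NC. In 36 of the 41, replicate 1 was below the mean of replicates 2 and 3 in both groups (41.1% of all genes tested), with a median difference of -0.31 in NC and -0.33 in KD on the log2 scale. The medians over all genes tested were 0.0010 in NC and 0.02 in KD, and over tested protein-coding genes -0.059 and -0.060. The drop was not particular to these subunits. In NC and KD the medians were -0.32 and -0.29 for nuclear complex I subunits and -0.32 and -0.24 for B-cell precursor markers. In both groups replicate 1 was lower for 27 and higher for 6 of the 37 complex I subunits. Of the 8 tested B-cell precursor markers, 5 were lower and 3 higher. For the assembly factors of complexes II to V the medians were -0.18 and -0.16. For the mitochondrially encoded subunits of complexes III to V the medians were above 0, at 0.26 and 0.46. Their summed level in NC was 18853, 21851 and 11737 CPM, so that NC replicate 1 lay between the others. In KD the sum was 23565, 13989 and 20364 CPM, highest in replicate 1. COX6A1, a complex IV subunit, differed most, with 18.5, 41.1 and 48.7 CPM in NC and 20.4, 38.1 and 48.5 CPM in KD, followed in NC by ATP5MF at -0.98, COX8A at -0.79 and ATP5MG at -0.77. Complex III and cytochrome c genes were all lower in replicate 1, by at least 0.05 in NC and 0.13 in KD. The part of sample handling and of reads outside genes in this difference was not tested.

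The subunit genes have short transcripts, with a median of 1098 bases (314.5 to 4098) for RefSeq-linked transcripts against 2842 bases for 12089 tested protein-coding genes. Their median GC content was 47.9% against 49.02%. Across the 41 genes the replicate 1 difference went with GC content (Spearman rho -0.53 in NC and in KD), where the protein-coding genes had -0.17 and -0.12. The Pearson correlations in NC and KD were -0.48 and -0.49 across the 41 genes. Across the protein-coding genes they had the other sign, 0.02 and 0.05. The log2 fold change between KD and NC with the block had a rho of -0.20 with transcript length across the 41 genes and -0.17 across the protein-coding genes, and of -0.08 and 0.11 with GC content. These correlations are across genes measured in the same 6 libraries, which are not independent replicates, and are given as descriptions.

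**Figure D4:**
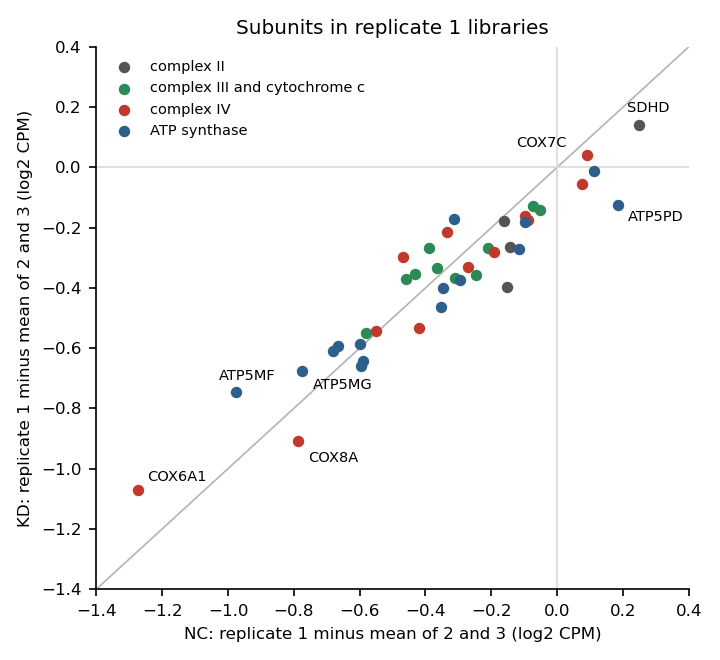
Level of each subunit gene in replicate 1 minus its mean in replicates 2 and 3 (log2 CPM), in NC on the horizontal and in KD on the vertical axis, coloured by complex. The line marks equal differences. Of 41 genes 36 lie below 0 on both axes, with COX6A1 farthest out and SDHD and COX7C above 0 on both.

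The proteins that help assemble these complexes and the other genes of the pathway were set beside the subunits, each as a list. Of 39 assembly factors of complexes II to V, all tested, none was called in either fit, 26 had an estimate above 0 with the block and the median was 0.03, against 0.08 for the subunits. TACO1, an activator of COX1 translation, had 2.20, 3.97 and 2.31 CPM in KD and 3.61, 4.26 and 4.02 CPM in NC, so that replicate 2 of KD alone overlapped with NC (-0.50, SE 0.21, edgeR quasi-likelihood adjusted p 0.909 with the block). COA6, a copper factor of complex IV, stood at 0.18, SDHAF2 and SDHAF4, which help mature SDHA, at 0.21 and 0.08, LYRM7, which guides the Rieske protein, at -0.11, and UQCC1 at 0.10. The ATP synthase factors TMEM242 and TMEM70 stood at 0.16 and 0.07.

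Of 4 other proteins of ATP synthase outside the 41, 3 had estimates above 0 and 1 below. ATP5MK, a small protein of the dimer, had 146, 119 and 129 CPM in KD and 116, 102 and 115 CPM in NC, with every KD library above every NC library (0.24 with the block, SE 0.05, edgeR quasi-likelihood adjusted p 0.0995). ATP5IF1, the inhibitor of the enzyme's reverse reaction, stood at 0.17 (edgeR quasi-likelihood adjusted p 0.534). DMAC2L, named after its values were seen, was lower in KD in each pair and stood at -0.03 (SE 0.08, edgeR quasi-likelihood adjusted p 0.999). None of the 4 genes of this list was called, and their median was 0.15.

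The subunits of complexes III to V that are made from mitochondrial DNA did not follow the nuclear ones within the pairs. Their median difference was 0.32, -0.66 and 0.82 in replicates 1, 2 and 3, where the nuclear subunits had 0.04, 0.09 and 0.11. MT-CYB, the cytochrome b of complex III, had 3359, 2089 and 2932 CPM in KD and 2700.1, 3108 and 1624 CPM in NC, and MT-ATP6, of the proton channel of ATP synthase, had 2800.2, 1583 and 2525 CPM in KD and 2239, 2570.4 and 1267 CPM in NC. For all 6 genes KD was higher in replicates 1 and 3 and lower in replicate 2. None was called, and their paired intervals ran from -1.75 to 2.14. Mitochondrial messenger RNAs made up 2.36% to 5.49% of gene counts and the mitochondrial ribosomal RNAs 0.293% to 6.79%, the highest in KD replicate 3. The part of these shares in the results was not tested.

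Of 12 regulators of respiratory genes, 11 were tested and none was called, with 4 estimates above 0 with the block and a median of -0.03. TFB1M, a mitochondrial ribosomal RNA methyltransferase, stood at 0.13 and the coactivator PPRC1 at -0.06. Of 7 tissue isoforms of complex IV subunits, NDUFA4L2 alone passed the filter (2.45 to 5.97 CPM, 0.14). The other 6, COX4I2, COX6A2, COX6B2, COX7A1, COX7B2 and COX8C, were at most 1.24 CPM in any library. Nuclear complex I subunits, which feed electrons into the same chain, had 29 of 37 estimates above 0 with the block, a median of 0.06 and no call, with NDUFA3 at 0.23 and NDUFAB1 at 0.25 (edgeR quasi-likelihood adjusted p 0.131 and 0.171). At an unadjusted p under 0.05 with the block, 10 of these 37 were higher (2.9% of all genes) and 1 lower (2.07%). NDUFA7 and NDUFB6, named after their values were seen, were the 2 of 37 whose KD libraries all lay below NC (1.77% of all genes). None lay above without overlap (1.67%). NDUFA7, at 0.787 to 1.87 CPM, stood at -0.74 (edgeR quasi-likelihood adjusted p 0.966) and NDUFB6 at -0.05.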

How the data were processed

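Each library's deposited file lists raw, unnormalised counts by Ensembl ID. The submitters' processing notes name hg38, the aligner STAR (2.7.10a), the counter HTSeq (0.11.1), FastQC (0.11.8) and DESeq2; annotation release, strand setting and trimming were not given in the sources used here. Of the gene IDs, 62639 matched the gene name table without their version, and 5 summary lines that name no gene, 39.8% to 66.5% of records, were left out. Reads aligned to several places are in such a line, so genes with near-identical copies are counted from uniquely placed reads.

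All genes were fitted together with edgeR 4.0.16 in R 4.3.3 (filterByExpr, TMM, robust quasi-likelihood F test, group only, Benjamini-Hochberg adjusted p under 0.05), and checked with DESeq2 1.42.0. CPM use TMM-scaled library sizes; within pairs, log2 CPM with a prior count of 2 were subtracted. The fits were also run on simulated counts with known changes, and the outcome is not reported here. No 2 libraries of a group agreed within sampling noise (chi-square over its degrees of freedom, 22.5 to 90.6). The groups share replicate numbers. Deviations from the group means correlated at 0.89, 0.62 and 0.61 between KD and NC libraries numbered 1, 2 and 3. Across numbers, KD 2 with NC 3 and KD 3 with NC 2 correlated at 0.59 and 0.55. Within a group the deviations of a gene cancel out, so an outlying replicate 1 in both groups makes the others correlate however they are matched. These values set replicate 1 apart and cannot show that numbers 2 and 3 are pairs. The numbers were still treated as pairs, and the blocked fit is given beside the group-only fit. The labels give only replicate numbers, not separate cultures or shared days, so p-values measure the spread between these 6 libraries, which may be technical.

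Values in every library are given, per complex, for the genes with the highest and lowest NC level per kilobase, the 2 with the smallest p higher and the 1 lower in KD with the block, and the c subunit genes; per list, the 2 with the smallest p. Coordinates are from GENCODE 29 (GRCh38), promoters from RefSeq. Members and lists were chosen with earlier results of these data known. Alternatives were the block, DESeq2, other scalings, no filter and each library or pair left out.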

Additional observations from a re-analysis of the deposited data

How the results depend on the processing

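No subunit gene was called under any alternative run. Low counts did not set the precision alone: with group only the SE was 0.11 for SDHC, at an NC mean of 21.5 CPM, and 0.24 for ATP5F1B, at 586 CPM. Over all genes, edgeR called 0 with group only, DESeq2 1, edgeR 29 with the replicate block and 26 with the block and protein-coding scaling (added after seeing the data). With no TMM factors, where all genes had a median of -0.045, medians were 0.034 over the 41 genes, 0.025 for complex III with cytochrome c and 0.048 for complex IV, and SDHB, SDHC and ATP5MG stood at -0.0014, -0.028 and -0.032. With no filter on low counts complex III stood at 0.056. Leaving out 1 library with group only gave medians from -0.010 to 0.19 over the 41 genes, -0.014 to 0.11 for complex II, -0.022 to 0.18 for complex III, -0.0025 to 0.21 for complex IV and -0.047 to 0.18 for ATP synthase, with 18 to 41 estimates above 0. Of the 18 genes given in every library by rule, those that crossed 0 when libraries or pairs were left out were UQCRC2 (-0.14 to 0.081), COX8A (-0.23 to 0.24), ATP5F1B (-0.18 to 0.19), ATP5MG (-0.20 to 0.22), ATP5MC3 (-0.20 to 0.16), ATP5MC1 (-0.017 to 0.18), SDHA (-0.010 to 0.22), SDHB (-0.050 to 0.10), SDHC (-0.057 to 0.11), UQCR11 (-0.024 to 0.29) and COX7A2L (-0.035 to 0.16). With the block and pair 1, 2 or 3 left out, all-gene calls were 5, 119 and 73. Complex III stood at 0.078 without pair 1 and 0.076 without pair 3, complex IV at 0.11, 0.081 and 0.085, and COX8A, ATP5F1B and ATP5MG at 0.016, 0.011 and -0.0072 without pair 1, UQCR11 at -0.0017 without pair 2 and SDHC at -0.028 without pair 3. The no-block fit without both replicate 1 libraries, also added, put complex IV at 0.11, COX8A at 0.016, ATP5F1B at 0.0092 and ATP5MG at -0.0059. The cause was not tested. With the RefSeq-linked length the NC levels per kilobase were 76.3 for SDHB, 41.7 for SDHC, 405 for UQCRH, 18.97 for UQCR11, 253 for COX6B1, 89.8 for COX7A2L, 319 for ATP5F1B and 46.8 for ATP5MG. The block changed no call of a subunit gene.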

Other observations

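Many of these genes have copies, which held few reads in most cases. Most are processed copies, reinserted sequences of their messenger RNAs. The SDHA copies that have an annotated type are unprocessed pseudogenes instead, and UQCRHL is annotated as protein-coding. The SDHAP1 and SDHAP4 loci that held reads have no annotated type. Among the gene IDs, 178 were named as copies of 32 of the 41 genes, with up to 42 for CYCS, and for 10 of the 32 they held over 1% as many counts as the gene. SDHAP4, a copy of SDHA, had 16.5, 17.1 and 16.3 CPM in KD (replicates 1 to 3) and 16.8, 23.2 and 15.7 CPM in NC. COX6A1P2 had 9.91, 10.1 and 12.9 CPM in KD and 5.28, 12.05 and 8.39 CPM in NC, and the copies of COX6A1 together held 27.7% as many counts as COX6A1 itself. UQCRHL had 6.02, 6.17 and 8.66 CPM in KD and 5.41, 6.44 and 8.44 CPM in NC. Of the 178 copies 8 passed the filter on low counts and none was called by edgeR in either fit, with 3 of 8 estimates above 0 with the block and a median of -0.13. Reads can be placed on a copy in error, so these values are uncertain.

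Exons of 21 of the 41 genes overlap those of another gene in GENCODE 29, 10 of them a gene on the same strand and 11 only on the opposite strand. The overlaps include TIMM8B with SDHD, EMC8 with COX4I1, HAUS1 with ATP5F1A and PTCD1 with ATP5MF. Their effect on the counts was not tested. COX7A2, COX6B1 and UQCRH, among the genes with the highest estimates in KD, share no exon bases with another annotated gene, while ATP5MC2 and ATP5PO each do on their own strand.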
